A study of Mus musculus with 5 samples.

Results

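Gene expression was compared between 2 stable KDM7 knockdown lines and 2 vector-carrying control lines. All derive from Neuro2A cells, an established line from a mouse neuroblastoma that keeps features of immature sympathetic neurons. The control lines carried an empty vector or a vector for knockdown of EGFP, a jellyfish-derived reporter protein that mouse cells do not make. The knockdown lines, KDM7 KD1 and KDM7 KD2, carried different vectors against KDM7. These are 4 of the 5 lines of the study. The remaining one, the parental Neuro2A line without any vector, was left out of the comparison, so that both arms had been through transfection and stable selection, and its values are given beside the results. Each line was measured on 1 Affymetrix 3' expression array after standard culture. The labels do not say whether a line is 1 clone or a pool, nor that the lines were grown as separate cultures, so p-values measure only the spread between these arrays. With 2 lines against 2, the number of arrays limits the precision of every value, and an exact permutation test of a single value cannot go below p = 0.333.

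KDM7, encoded by Kdm7a, is a Jumonji-domain enzyme that removes methyl groups from histone H3 at lysines K9 and K27, marks that are found on silenced genes. Its plant homeodomain (PHD) finger binds the H3K4 methyl mark of active promoters. Phf8 and Phf2 encode its closest relatives. The study's design text gives as its purpose to learn what KDM7 does to gene expression. In RNA from whole cultures, fewer cells of a kind and less RNA per cell cannot be told apart.

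The values are MAS5 signals in arbitrary units, and all 5 arrays had the same 2% trimmed mean of 500.0. Of 45037 probe sets, 22519 reached a mean signal of 42.3 over the 4 lines, and these were tested, covering 10856 named genes. The 3'/5' signal ratio of Gapdh lay between 0.814 and 0.831, and that of Actb between 1.25 and 1.43, with 1.43 in the empty vector line and 1.35 in each of the other 3 lines compared. Of the sympathoadrenal lineage markers, Hand2, at 10162 to 13084, and Phox2a, at 2444 to 3789, were bright in all 4 lines. Others, such as Gata3 and Isl1, given below, were dimmer. Of 40 sympathoadrenal and neuroblastoma genes on the array, 33 passed the brightness filter. Of the markers of other cell types, none of 7 blood and 5 endothelial genes on the array passed the brightness filter, and 1 of 8 fibroblast genes (Pdgfra) and 2 of 6 glial genes (Mbp and Erbb3) did. The summed glial level was 452 and 353 in the control lines and 327 and 488 in the knockdown lines. Smooth muscle genes were brighter, and 6 of 11 on the array passed the filter. Their summed level was 5744 and 4477 in the control lines and 6603 and 6288 in the knockdown lines. In the parental line it was 13976.

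Kdm7a, Fst and Zdbf2 were the genes past the test. Kdm7a fell in both knockdown lines, as did Fst, the gene of the secreted activin antagonist follistatin. Zdbf2, which is imprinted and expressed from the paternal copy, rose. Across 22519 probe sets limma called 4 (0.0178%) at an adjusted p under 0.05. Of these, 1 was higher in the knockdown lines (0.00444%) and 3 were lower (0.0133%), and all 4 had an adjusted p of 0.0420. At an unadjusted p under 0.05 there were 1222 (5.43%), close to the share that this threshold gives by itself. The calls depended on how limma estimated the spread. In simulated arrays without any true change this model also called probe sets, so a call can arise without a change. With a prior common to all brightness levels the smallest adjusted p in limma was 0.827 and the calls were 0 (1303 at an unadjusted p under 0.05), while with the trend over brightness made robust they were again 4. Without the empty vector line it called 135, without the EGFP KD line 25, without KDM7 KD1 1 and without KDM7 KD2 0. The calls without either control line held all 4, and those without either knockdown line held none of them, with adjusted p in limma of 0.126 for each without KDM7 KD1 and 0.160 without KDM7 KD2.

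Kdm7a was low in both knockdown lines by each of its 3 tested probe sets. Probe set 1456150_at had a signal of 611 in the empty vector line, 665 in the EGFP KD line, 130 in KDM7 KD1 and 136 in KDM7 KD2. The arms were far apart and the lines of an arm close together, a 4.79-fold decrease (log2 change -2.26, SE 0.18, n = 2 and 2). The parental line, at 487, lay between the arms and nearer to the controls. By 1435867_at the signals were 648 and 872 in the control lines and 231 and 143 in KDM7 KD1 and KD2, a log2 difference of -2.05 (SE 0.27) with an adjusted p of 0.294 in limma. The dim 1427359_at, at 84.1 and 103 against 25.2 and 19.9, differed by -2.05 with an adjusted p of 0.742 in limma. Neither of these passed the test, and the arms did not overlap on either. Of its 2 probe sets under the brightness filter, 1459821_x_at had overlapping arms, at 5.78 and 7.46 against 5.33 and 10.1. Of the relatives, Phf8 differed by -0.09 (SE 0.15) on the log2 scale and the brighter Phf2 probe set by 0.12 (SE 0.23). The knockdown lines of Phf2, at 496 and 622, overlapped the controls at 423 and 617, and the sign of its difference turned when single lines were left out.

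Zdbf2, a gene on chromosome 1 whose protein carries a DBF4-type zinc finger, was the 1 call in the higher direction. Its signal was 233 in the empty vector line and 282 in the EGFP KD line, and 1152 and 1141 in KDM7 KD1 and KD2. It rose 4.48-fold (log2 change 2.16, SE 0.17), and the parental line, at 369, stood nearer to the controls. No other imprinted gene passed the test. Of 21 imprinted genes tested, 6 were above both controls in both knockdown lines and 1 below, against 18.5% above and 17.6% below over all probe sets tested. Their median log2 difference was -0.01 against 0.01 over all probe sets. The 6 held Zdbf2, Nap1l5 at 1588 and 1271 against 1770 and 1738 (log2 difference 0.30, SE 0.15), and 4 genes with signals of at most 131 in every line compared (Igf2, Igf2r, Slc22a18 and Peg10).

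Fst fell by both of its tested probe sets. On 1421365_at the control lines had 969 and 1040 and the knockdown lines 274 and 255, 3.80-fold lower (log2 change -1.92, SE 0.16). On 1434458_at the control lines had 1484 and 1688 and the knockdown lines 492 and 444, 3.39-fold lower (log2 change -1.76, SE 0.15). The parental line was above all 4 lines on both, at 1348 and 2646. On both probe sets the arms were further apart than the lines of either arm.

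The genes next in order of p did not pass, and each had arms that did not overlap. Htr3a, a subunit of the serotonin-gated ion channel, had signals of 2061 and 2152 in the control lines and 839 and 822 in KDM7 KD1 and KD2, a log2 difference of -1.34 (SE 0.13, adjusted p = 0.0613 in limma). Tbx2, a T-box transcriptional repressor, had 946 and 1115 against 377 and 356 (-1.49, SE 0.16, 0.141). Ngfr, the low-affinity neurotrophin receptor, had 1774 and 1605 against 812 and 805 (-1.06, SE 0.14, 0.269), and its dimmer probe set 248 and 246 against 56.9 and 90.5 (-1.78). For all 3 genes the parental signal was within the range of the controls or above it by the brightest probe set, at 3963 for Htr3a, 1105 for Tbx2 and 1885 for Ngfr. Tgfbi, an extracellular matrix protein named for its induction by TGF-beta, was higher on all 4 of its probe sets. The log2 differences were 2.49, 2.50, 1.27 and 1.97. Probe set 1415871_at, with 2.50, was dim in the control lines, at 29.7 and 17.5 against 165 and 101 in the knockdown lines. The size of its difference is therefore uncertain. The brightest had 102 and 69.2 in the control lines, 580 and 383 in the knockdown lines and 235 in the parental line (SE 0.30, adjusted p = 0.204 in limma). Without the empty vector line, Htr3a, Tbx2 and this Tgfbi probe set had adjusted p of 0.00924, 0.0144 and 0.0115 in limma, where the lone control is taken to vary like the knockdown lines. These were the lowest over their alternatives. Htr3a passed in 3 of 13, Tbx2 in 1 of 13 and this Tgfbi probe set in 1 of 12, with adjusted p in limma of up to 0.853, 0.853 and 0.914.

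**Figure D1:**
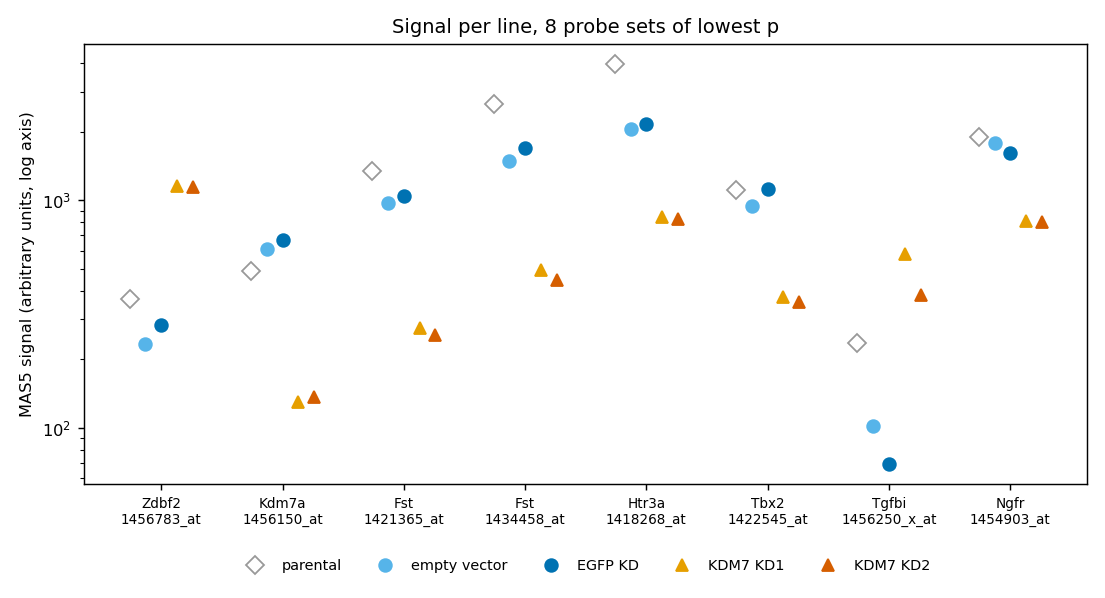
MAS5 signal (log axis) of the 8 probe sets of lowest p, 1 point per line; open diamonds are the parental line, circles the vector controls and triangles the KDM7 knockdown lines. On Kdm7a 1456150_at the knockdown lines sit at 130 and 136 under controls of 611 and 665, and on Zdbf2 they sit at 1152 and 1141 above controls of 233 and 282.

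Promoters are shown for 2 genes in each direction. These had the lowest p among genes, other than Kdm7a, that have a promoter window and meet the 2-fold rule given below. CG pairs are the sites of DNA methylation. Each window runs from 250 bases before to 50 after a start of the gene, 5' to 3' on the gene's strand. Windows are from RefSeq on GRCm38.p6, with CG in capitals. Where a gene had several windows, that of its 5'-most start was used. Zdbf2 had 2 windows, and Tgfbi, Ngfr and Lix1 had 1 each. Zdbf2 lies at chr1:63200108-63200407 (plus strand, 15 CG pairs), Tgfbi at chr13:56609336-56609635 (plus strand, 22), Ngfr at chr11:95587649-95587948 (minus strand, 23) and Lix1 at chr17:17402436-17402735 (plus strand, 3).
Zdbf2: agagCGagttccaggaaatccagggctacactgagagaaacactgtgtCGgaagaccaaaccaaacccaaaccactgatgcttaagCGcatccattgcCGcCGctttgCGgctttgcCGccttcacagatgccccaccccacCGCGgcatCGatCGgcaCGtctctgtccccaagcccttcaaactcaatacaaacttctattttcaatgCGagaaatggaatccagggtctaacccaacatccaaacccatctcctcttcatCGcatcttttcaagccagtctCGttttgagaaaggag
Tgfbi: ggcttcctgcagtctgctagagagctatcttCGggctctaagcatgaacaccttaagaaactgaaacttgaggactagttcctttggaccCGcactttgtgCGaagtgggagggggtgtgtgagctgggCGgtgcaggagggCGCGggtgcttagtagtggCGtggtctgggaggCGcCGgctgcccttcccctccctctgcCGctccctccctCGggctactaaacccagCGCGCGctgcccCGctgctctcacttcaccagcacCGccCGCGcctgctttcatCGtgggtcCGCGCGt
Ngfr: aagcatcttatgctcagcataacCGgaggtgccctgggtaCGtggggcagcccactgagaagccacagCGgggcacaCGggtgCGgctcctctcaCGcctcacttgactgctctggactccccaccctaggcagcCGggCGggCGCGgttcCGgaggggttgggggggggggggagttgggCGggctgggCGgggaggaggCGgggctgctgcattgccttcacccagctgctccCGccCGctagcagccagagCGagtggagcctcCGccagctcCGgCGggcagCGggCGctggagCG
Lix1: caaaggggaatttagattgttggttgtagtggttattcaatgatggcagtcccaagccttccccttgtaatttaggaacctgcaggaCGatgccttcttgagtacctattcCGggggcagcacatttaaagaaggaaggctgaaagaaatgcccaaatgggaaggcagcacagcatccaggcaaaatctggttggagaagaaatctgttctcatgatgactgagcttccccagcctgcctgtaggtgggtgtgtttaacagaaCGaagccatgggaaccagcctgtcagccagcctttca

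Of 21 genes chosen by that rule, 16 had a window in the table, among 27025 genes. Fst, Htr3a, Tbx2, Adam12 and Ssc5d had none. The 10 windows of genes higher in the knockdown lines held 1 to 25 CG pairs with a median of 10. The 6 of lower genes held 3 to 65 with a median of 20, against a median of 7 over all windows. All windows include those of genes that did not pass the brightness filter, so they are no matched comparison. The highest count, 65, was that of Kdm7a itself. The TATA motif TATAAA was in 14.2% of all windows and the E-box CACGTG, the same on both strands, in 7.24%, both searched on both strands, and neither was in the 16.

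A rule of size was used beside the test, because the test had few lines to work with. It took probe sets whose 2 knockdown lines were both at least 2-fold beyond both controls, measured between the nearest lines. There were 20 above (0.0888%) and 18 below (0.0799%), 38 in all (0.169%). Centring each array on its median changed this split to 16 above and 22 below. In 27 of the 38 both lines of the brighter arm had a signal of at least 100, which gave 12 genes above and 9 below. Leaving a line out loosens the rule, and the count was 369 without the empty vector line, 320 without the EGFP KD line, 251 without KDM7 KD1 and 219 without KDM7 KD2.

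Below the controls, beside Kdm7a, Fst, Tbx2, Htr3a and Ngfr, stood Susd5, Lix1, Cd82 and Polr2f. Susd5 had 329 and 270 in the control lines and 53.1 and 106 in the knockdown lines (log2 difference -1.99), and its second probe set had -0.76. Lix1, a gene named for limb expression, had 1143 and 2451 against 466 and 485 (-1.82). Its controls were themselves more than 2-fold apart, while the knockdown lines and the parental line, at 537, were close. Its difference was -1.27 without the EGFP KD line and -2.37 without the empty vector line. Cd82, a tetraspanin of the cell surface, had 178 and 150 against 66.7 and 19.7 (-2.17), or -1.29 without KDM7 KD2 and -3.05 without KDM7 KD1. Polr2f, a subunit shared by the nuclear RNA polymerases, met the rule by a dim probe set (157 and 107 against 43.4 and 38.7, log2 difference -1.66). Its bright probe set, at 6751 and 6448 against 5571 and 5596, had a log2 difference of -0.24, so the probe sets of this gene disagreed in size.

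Above the controls, beside Zdbf2 and Tgfbi, stood Diras2, Sumf2, Rnf182, Olfml2b, Smarca1, Adam12, Ssc5d, Hip1r, Arntl2 and 1700094D03Rik. Diras2, a small GTPase of the Ras family that is expressed in brain, had 225 and 142 in the control lines and 662 and 643 in KDM7 KD1 and KD2, a log2 difference of 1.87 (SE 0.25, adjusted p = 0.294 in limma). Adam12, a membrane-anchored metalloprotease, had 222 and 233 against 517 and 524 (1.19, SE 0.17, 0.455). The knockdown lines were nearly equal for both genes on these probe sets. The dimmer second probe set of Diras2 had overlapping arms (0.27), and that of Adam12 differed by 0.87. Rnf182, a RING-finger ubiquitin ligase, had 62.3 and 11.7 against 144 and 153, a log2 difference of 2.46 on this probe set and of 1.13 on the second. The first was 3.67 without the empty vector line and 1.26 without the EGFP KD line. Smarca1, an ISWI chromatin remodelling ATPase, had 9.79 and 125 against 278 and 281 (3.0, SE 1.01), and without the empty vector line its difference was 1.16. Olfml2b had 88.8 and 69.4 against 232 and 200 (1.45). The remaining genes had log2 differences of 1.34 to 1.97 and no knockdown signal above 271. Hip1r differed by 1.97 on the probe set that met the rule and by 0.32 on its other tested one. Arntl2, a paralog of the clock factor Arntl, and 1700094D03Rik had other probe sets with differences of -0.01 for the first and of -0.08 and -0.59 for the second.

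**Figure D2:**
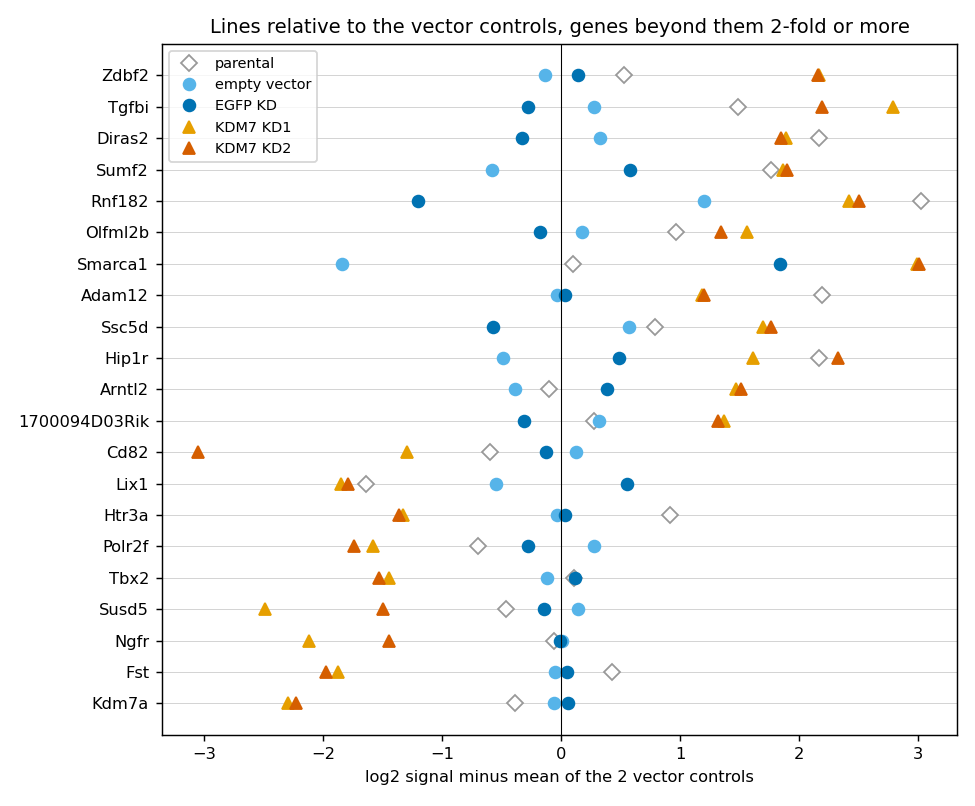
Log2 signal of each line minus the mean of the 2 vector controls (horizontal axis), 1 row for each of the 21 genes beyond the controls by 2-fold or more, by the probe set with the widest gap; symbols mark the 5 lines. For Adam12, Diras2 and Rnf182 the open diamond of the parental line lies beyond the knockdown triangles, with Adam12 at 1040 in the parental line.

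For several of the higher genes the parental line was nearer to the knockdown lines than to the vector controls. Of the 20 probe sets above, the parental line lay on the side of the controls in 4, between the arms in 10 and at or beyond the level of the nearer knockdown line in 6. The named genes among those 6 were Adam12, Diras2, Rnf182, Hip1r, Hps1 and Atp6v1e1. Adam12 had 1040 in the parental line, and Diras2 had 799. Of the 18 probe sets below, the parental line was on the side of the controls in 8, between in 9 and on that of the knockdown lines in 1, Traip, which was dim in all lines. With the parental line added to the control arm, 19 of the 38 still met the rule, 7 above and 12 below. The calls were then 0 (1078 at an unadjusted p under 0.05), and the smallest adjusted p in limma was 0.0589. Among all probe sets whose arms did not overlap, 36.1% of those tested, the parental line was on the side of the knockdown lines in 31.1% of those above and 43.7% of those below. In the 2-fold sets these shares were 30% and 5.56%. The 6 of 20 above were thus close to the share over all probe sets above, while the 1 of 18 below was under its share. Whether vector, selection or the choice of cells separates the parental line from the controls was not tested.

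Lines within an arm differed about as much as lines of different arms did. The median absolute log2 difference between the EGFP KD and empty vector lines was 0.24, and that between KDM7 KD2 and KD1 0.17. Between the means of the arms it was 0.16, which is not a like measure because each mean averages 2 lines. The knockdown lines were the closest of the 10 pairs of lines, while a control and a knockdown line were 0.20 to 0.22 apart and the parental line was 0.28 to 0.29 from each other line. Between the controls 1047 probe sets were 2-fold or more apart, and between the knockdown lines 662. On single probe sets, chosen for the largest differences within an arm, single lines had large drops or gains. Scd1, a fatty acid desaturase, had 1864 in KDM7 KD2 and 29.5 in KDM7 KD1, against 16.4 and 85.6 in the controls. Sohlh2 had 94.2 in the EGFP KD line and 1244 to 1365 in the other 3, Gpm6b 34.1 in the empty vector line and 444 to 525 in the others, and Rilpl1 1.25 in the empty vector line and 387 to 447 in the others. Panx1, a membrane channel, had 18.1 in KDM7 KD1 and 227 to 425 in the others. For Rilpl1 the arms differed by 4.13 on the log2 scale with all 4 lines and by -0.11 without the empty vector line. The 1 probe set called without KDM7 KD1, the unnamed 1440557_at, was of this kind as well, at 768 and 716 in the controls, 607 in KDM7 KD1 and 24.8 in KDM7 KD2.

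**Figure D3:**
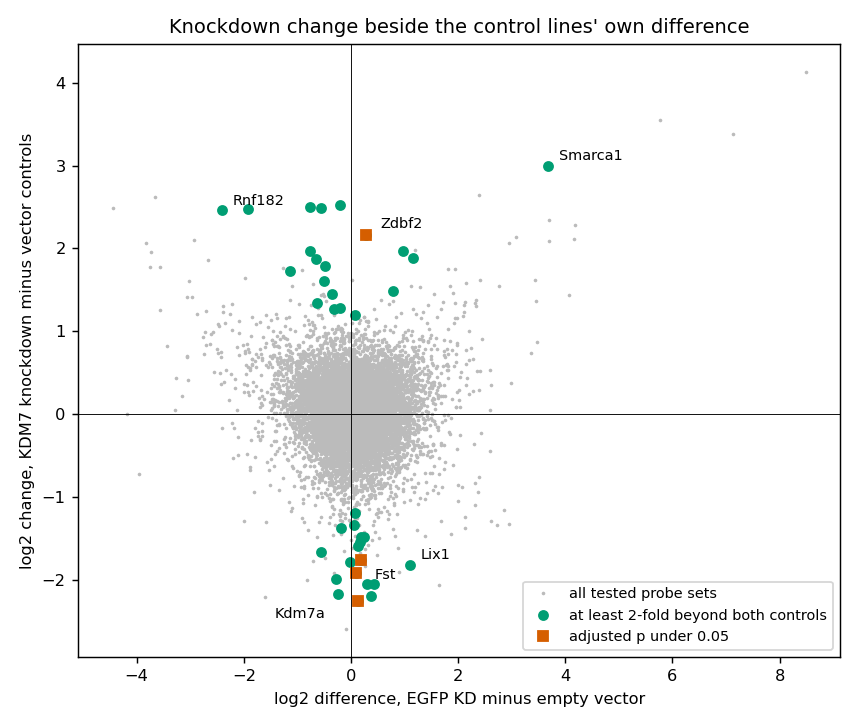
Log2 change between knockdown and vector control lines (vertical axis) against the difference between the control lines themselves (horizontal axis), 1 point per tested probe set; green circles are at least 2-fold beyond both controls and orange squares passed the test. The 4 called probe sets lie near 0 on the horizontal axis, while Smarca1 and Rnf182, with log2 changes of 3.0 and 2.46, lie far from it. The control difference is part of the spread used in the test, so called probe sets tend to lie near 0 here.

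Gene lists were described by how many genes had both knockdown lines above or both below the controls, each gene by its brightest tested probe set. The lists were chosen with earlier results of these data known. The shares over all probe sets, given above, were 18.5% and 17.6%. In follistatin, activin, BMP and TGF-beta signalling, where ligands bound by receptors act through SMAD proteins, 37 genes were tested, 14 were below and 3 above, with a median log2 difference of -0.16. Fst was the 1 member called. Among inhibitors, Smad6, which blocks BMP receptors from inside the cell, had 594 and 640 in the control lines and 357 and 362 in the knockdown lines (log2 difference -0.78, SE 0.16). The Id genes, BMP targets that encode inhibitors of basic helix-loop-helix factors, were all lower. Id3 had 2941 and 2006 against 857 and 1235 (-1.24, SE 0.24), Id4 4482 and 4385 against 2775 and 2311 (-0.81, SE 0.12), Id2 1995 and 1461 against 802 and 1036 (-0.91, SE 0.20) and Id1 3580 and 3900 against 2472 and 2940 (-0.47, SE 0.13). None of these passed, with adjusted p in limma of 0.546 to 0.891. The parental line had 4812 for Id3, above both controls, but 2704.5 for Id4, between the knockdown lines. Of the ligands, Tgfb2 was lower (-0.62, SE 0.22), and of the receptors Bmpr1a was higher (0.31, SE 0.12) and Bmpr2 lower (-0.21, SE 0.11). Tgfbi and Eng were the other members above. The median stayed below 0 under quantile normalization and median centring, at -0.16 and -0.21, against -0.04 over all probe sets in the latter.

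Of 33 sympathoadrenal and neuroblastoma genes tested, 13 were below and 3 above, with a median of -0.17 and 0 called. Tbx2, Htr3a and Ngfr, given above among the genes of lowest p, led those below, so this count is not separate from those results. The lineage factors Gata3 and Isl1 had log2 differences of -1.47 (SE 0.48) and -1.44 (SE 0.54), with control lines far apart. Isl1 had 545 in the empty vector line, 1998 in the EGFP KD line and 316 and 466 in the knockdown lines, and Gata3 had 224, 585, 178 and 95.3 in the same order. Phox2a, at 3271 and 3789 against 2444 and 2798 (-0.43, SE 0.13), and Sox4, at 15792 and 16109 against 12985 and 13097 (-0.29, SE 0.07), had smaller differences with closer lines. Mycn, the oncogene amplified in many neuroblastomas, was lower on 1 probe set (991 and 1413 against 587 and 687), while its others differed by -0.19 and -0.12 with arms that overlapped. The parental line had 65.3 on the first and 1068 on the second of them. Chgb, a protein of secretory granules, was higher at 10981 and 9341 against 13086 and 17193 (0.57, SE 0.14), and Chga lower (-0.34, SE 0.13). Hand2, Stmn2 and Scg5 were within 0.11 of 0.

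Both lists of lipid synthesis had more genes above than below. Of 16 genes of fatty acid synthesis and desaturation 11 were above and 3 below, with a median of 0.17, and of 23 of cholesterol synthesis and uptake 9 were above and 2 below, with a median of 0.11. No member of either passed, and most differences were small. Acss2, which makes acetyl-CoA from acetate, had 1008 and 943 against 1592 and 1362 (log2 difference 0.60, SE 0.14). Srebf1, the transcription factor that drives fatty acid genes, had 0.31 (SE 0.11), Scd2 0.21 (SE 0.06), Fads1 0.29 (SE 0.12) and Fasn 0.16 (SE 0.08). Elovl7, a fatty acid elongase, went the other way on all 6 of its probe sets, at 1738 and 1826 against 1195 and 1061 on the brightest (-0.66, SE 0.13). In the mevalonate pathway Pmvk had 0.77 (SE 0.19) and Fdps 0.30 (SE 0.08), and Insig1 0.31 (SE 0.11). After median centring, which left 12.1% of all probe sets above and 22.7% below, 6 of 16 and 6 of 23 genes were above. Cytosolic ribosomal protein genes, 14 above and 1 below of 39 with a median of 0.07, depended on the scaling, with 8 and 5 under quantile normalization and 7 and 5 after median centring.

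Signalling and guidance genes held several members with clear gaps between the arms and no call. Of 18 Notch genes 6 were above and 2 below. Notch2 had 277 and 129 in the control lines and 499 and 613 in the knockdown lines (1.55, SE 0.35), a difference of 0.99 without the EGFP KD line and 2.10 without the empty vector line. Rbpj, the transcription factor of the pathway, had 0.28 (SE 0.14), and its other probe sets 0.21 and -0.01. Of 16 genes of FGF signalling 6 were below and 3 above, and 5 of those below were of the Dusp and Sprouty families of feedback inhibitors. Dusp5 had 479 and 402 against 221 and 255 (-0.89, SE 0.20), Dusp6 2977 and 3160 against 1703 and 2347 (-0.62, SE 0.17) and Spry2 477 and 481 against 370 and 350 (-0.41, SE 0.17). The parental line was at the knockdown level for Dusp5, at 252, between the arms for Dusp6, at 2586, and above the controls for Spry2, at 536. The FGF list's median, -0.11, was 0.06 with the parental line added to the controls and 0.04 without KDM7 KD1. Of 25 axon guidance genes 8 were below and 4 above. Nrp1, a receptor for semaphorins and VEGF, had 1963 and 1970 against 1123 and 1303 (-0.70, SE 0.13) and was lower on 3 of its 4 probe sets, and the adhesion molecule Cntn2 had 108 and 126 against 56.1 and 31.1 (-1.48, SE 0.40) and -0.40 on its other tested probe set. Plxnc1, a semaphorin receptor, was higher at 902 and 636 against 1408 and 1141 (0.74, SE 0.21). Among brain patterning factors Meis1 had 221 and 306 against 95.9 and 132 (-1.21, SE 0.28), and Pax6 was higher at 224 and 226 against 348 and 345 (0.63, SE 0.18), while its other tested probe sets, 0.12 and -0.07, had overlapping arms. The secreted Wnt inhibitor Dkk1 had 6545 and 8120 against 4168 and 5287 (-0.63, SE 0.15) and -0.97 on its second probe set, in a list with 6 above and 5 below of 27.

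Genes for the other enzymes of the H3K9 and H3K27 marks differed little. Of 10 other demethylases of these residues 1 was above and 2 below, with a median of -0.04. Kdm3b had 718 and 713 in the control lines and 850 and 893 in the knockdown lines (0.28, SE 0.14), and its other probe set differed by -0.20. Of 30 methyltransferase and Polycomb genes 3 were above and 8 below, with a median of -0.01. The members with the widest gaps were Phc3 (0.54, SE 0.22), Phf1 (0.32, SE 0.21) and Cbx6 (-0.29, SE 0.12). The lists of the cell cycle (10 above and 11 below of 47), neuronal cytoskeleton and synapse (6 and 7 of 34) and chromatin remodelling ATPases (4 and 5 of 23) had nearly as many genes on one side as on the other. The p53 targets had 1 above and 6 below of 18, and with the parental line added to the controls 1 and 1. A further control can only lower such counts, for any genes, so the drop by itself says nothing about this list. By the brightest probe set of each gene, no list other than those of Fst and Zdbf2 held a call.

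**Figure D4:**
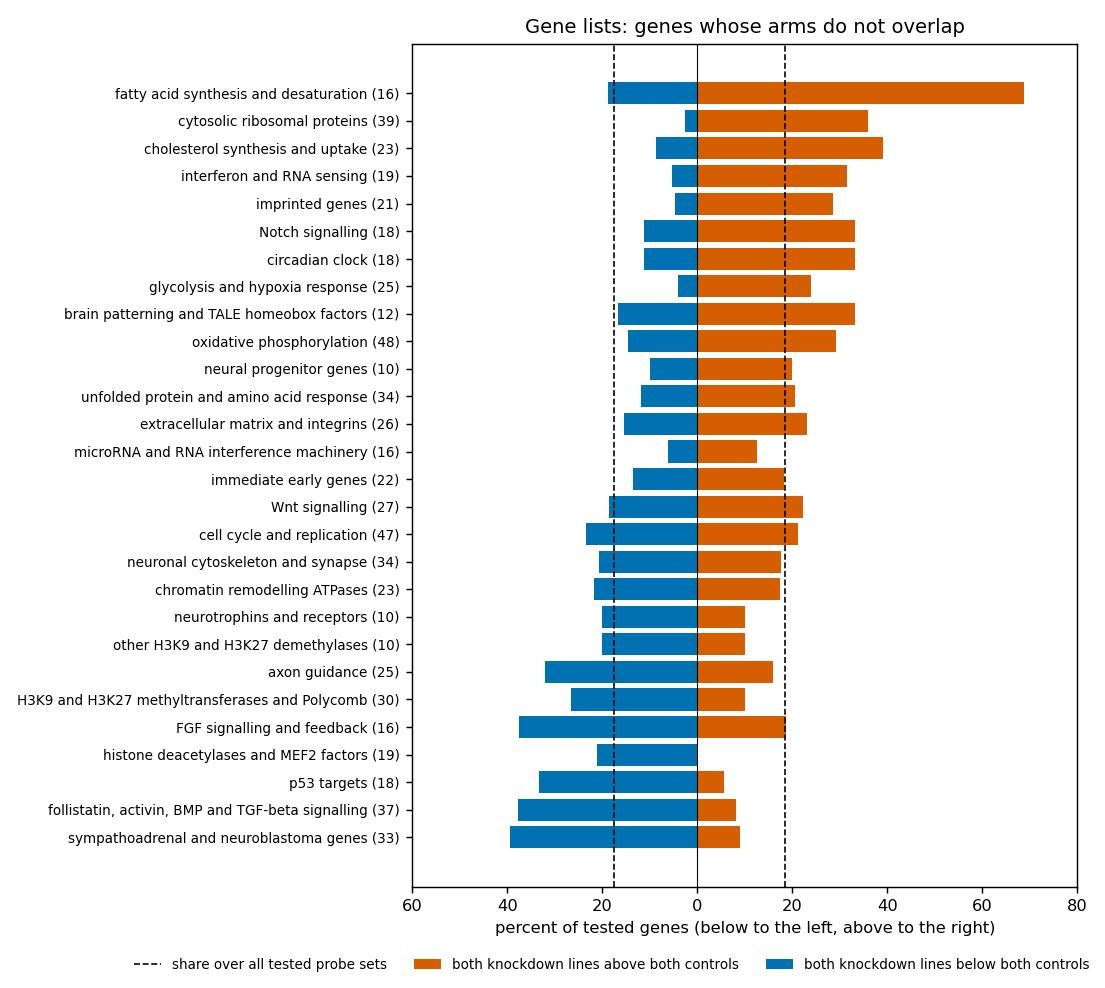
Percent of the tested genes of each list (number in brackets) with both knockdown lines above (right, orange) or below (left, blue) both vector controls, for lists with at least 10 genes tested; dashed lines mark the shares over all tested probe sets, 18.5% above and 17.6% below. Fatty acid synthesis reaches furthest right, with 11 of 16 genes above, and the sympathoadrenal list furthest left, with 13 of 33 below.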

How the data were processed

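The authors deposited 1 linear signal intensity per probe set and array. Per the submitters' processing notes it was computed with MAS5, of which no version is given in the sources used here. RNA was labelled as biotin cRNA per the labels' protocols. The deposited intensity of each array had a 2% trimmed mean of 500.0, so no further normalization was applied. Dim MAS5 signals are noisy on a log scale, hence the brightness filter. The 64 AFFX control probe sets were left out. Signals were log2-transformed without an offset. Probe sets whose mean over the 4 arrays reached the median were kept.

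Of 45037 probe sets, 34945 had 1 symbol in the platform annotation, 932 several and 9160 none. Only those with 1 symbol are named. Gene numbers of 34741 were found in the RefSeq table, and 0 symbols were updated. The 2 arms of 2 lines were compared with lmFit and eBayes, with a trend over brightness, of limma 3.58.1 (R 4.3.3). There were 2 residual and 5.11 prior degrees of freedom, and p-values were adjusted by Benjamini-Hochberg for 22519 probe sets. The test was tried on simulated data with known changes and with none, and called probe sets in the latter too. Probe set differences are knockdown minus control, and n = 2 in each arm.

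The comparison, the gene lists and the tests were chosen with earlier results of these data known. Named genes are Kdm7a, Phf2, Phf8 and Fst, called genes, up to 20 genes each way 2-fold beyond both controls with signals of at least 100 in the brighter arm, up to 4 members of each list with the widest gap between arms, and the 5 largest differences each way within an arm. Hps1, Atp6v1e1, Traip, 1440557_at and all further list members, such as Id1, Id2, Id4, Bmpr2, Isl1 and Fasn, were chosen after their values were seen. Alternatives were quantile normalization, median centring, other brightness filters, an offset, other variance models, the parental line added to the controls, 1 probe set per gene and leaving out each line.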

Additional observations from a re-analysis of the deposited data

How the results depend on the processing

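Calls numbered 4, and 4 again under median centring, a filter on the mean of all 5 arrays, an offset of 32, and the trend with robust; there were 0 under quantile normalization (smallest adjusted p in limma 0.0562, 1241 at an unadjusted p under 0.05), a filter at the 70th percentile (0.0606, 751), without the trend (0.827, 1303) and with the parental line added to the controls (0.0589, 1078). No filter gave 5, adding Htr3a, 1 probe set per gene 3, and an adjusted p under 0.10 gave 5. Leaving out a line gave 0 to 135 calls and 219 to 369 probe sets at least 2-fold beyond the controls, with 1 residual degree of freedom and the lone line taken to vary like the other arm. That set, 38, was 2021 with no filter, where dim signals enter, 10 with the filter at the 70th percentile, 19 with the offset, 19 with the parental line and 22 with 1 probe set per gene.

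Of 135 probe sets named for the comparison of arms, 130 kept their sign under every alternative run, and of 19 named only for a difference within an arm, 6 did. Most of the 135 were chosen because their arms did not overlap, so leaving out a line could not turn their sign. The filters and variance models leave the difference itself unchanged. The count of 130 is therefore largely set by how the probe sets were chosen. The dim Phf2 probe set 1421069_at, at 0.03, was -0.023 under quantile normalization, -0.025 under median centring, -0.0017 with the offset and -0.48 to 0.54 with a line left out, lowest without the EGFP KD line and also below 0, at -0.097, without KDM7 KD1. The brighter one was -0.15 to 0.39 with a line left out, lowest without the EGFP KD line and -0.041 without KDM7 KD2. With the parental line added to the controls Ddit3 was 0.036, Jmjd1c 0.067 and Mycn 0.50. The other reversals were of genes named for a single line. With a line left out Bcan ranged from -1.60 to 1.69, Cct4 from -3.53 to 1.01, Cxcl1 from -2.09 to 2.10, Dennd6a from -0.53 to 3.03, Igfbp5 from -2.76 to 1.04, Lrrc17 from -1.85 to 1.76, Panx1 from -4.10 to 0.30, Ptgis from -1.85 to 1.85, Rilpl1 from -0.11 to 8.38, Scd1 from -0.34 to 5.64, Sh3kbp1 from -4.34 to 0.21, Slfn9 from -0.10 to 3.65 and Taf1 from -2.99 to 0.59. Ptgis was -0.066 under quantile normalization, -0.053 under median centring and -0.064 with the parental line. Bcan was -0.00890 under median centring, -0.11 with the offset and -0.32 with the parental line, and Cxcl1 -0.048 and -0.17 under the first 2 of these. Lrrc17 was 0.19 with the offset and 0.075 with the parental line, and Igfbp5 0.14 with the latter. The causes were not tested. No paired analysis was possible because nothing in the labels pairs a control line with a knockdown line. Arrays have no read depth, and signal over background sets the precision.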
